A study of Mus musculus with 9 samples.

Results

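Levels of 10 genes were described in mouse brain: the CLK kinase genes Clk1, Clk2, Clk3 and Clk4, the cyclin L genes Ccnl1 and Ccnl2, and Leng8, Wsb1, Rnpc3 and Ints6l. They were chosen from a table of 56748 genes for their measured values, as CLK splicing kinases, cyclin L and nuclear RNA-processing genes that were low in 5xFAD mice and back up with Cd5l. That choice named no numeric cutoff. All 10 were found by symbol and passed the filter on low counts, which kept 17575 genes. The libraries came from 3 genotypes at 7 months of age, with 3 libraries each, and each library is titled as a separate mouse. 5xFAD/Cd5l tg/wt mice are 5xFAD mice that also carry a transgene for mouse CD5L driven by the human PDGF-B promoter, which is active in neurons. 5xFAD mice are a transgenic model that expresses mutant human APP under the neuronal Thy1 promoter and deposits amyloid, and wild-type mice carry no transgene. All libraries were made from total RNA of whole brain without the cerebellum, and a bulk library cannot separate fewer cells of a type from less RNA per cell. The labels state neither strain nor sex.

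CLK kinases phosphorylate the serine- and arginine-rich (SR) proteins that choose splice sites, and this moves SR proteins between nuclear speckles and the pre-mRNA. Cyclin L proteins pair with the kinase CDK11 and also act in splicing. The genes for several of these regulators, Clk1 and Clk4 among them, are known in mouse and human cells to keep a large part of their own RNA in the nucleus with an unspliced intron, which can be spliced later, and other products of these genes are degraded because they hold an early stop codon. Wsb1 encodes a substrate receptor of a SOCS-box ubiquitin ligase, Rnpc3 a protein of the minor spliceosome that removes U12-type introns, Ints6l a relative of the Integrator subunit Ints6, and Leng8 a protein with a SAC3 domain, a fold found in factors of nuclear RNA export. Counts per gene do not separate spliced from unspliced forms.

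The annotation shows how many forms these genes have. In the GENCODE vM21 gene models, which use an older build than the counts and were matched by Ensembl identifier, 9 of the 10 genes had at least 1 transcript of the class retained intron, against 55.9% of 14548 tested protein-coding genes. Clk1 had 7 such transcripts of 13, Clk4 7 of 14 and Ccnl1 8 of 14, while Ints6l had 0 of 7. The median was 3.5 retained-intron transcripts for the 10 genes and 1 for all tested protein-coding genes. A transcript of the class nonsense-mediated decay was listed for 8 of the 10, all but Leng8 and Rnpc3, against 27.1%. Genes with more annotated transcripts have more chances to hold either class, and these genes had a median of 9.5 transcripts, against 5 for all.

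Promoter windows were read because the genes had similar profiles across the libraries, which is how they were chosen and so is no separate result. RefSeq windows of 250 bases before to 50 bases after a gene's start (build GRCm38.p6) were found for 9 of the genes, all but Clk1. The letters TGACGTCA, the palindromic cAMP response element, occurred in a window of 3 of the 9, Clk4, Ccnl1 and Wsb1, against 3.33% of 12365 tested genes with a window, each gene counted over all its windows. Wsb1 and Leng8 have 2 windows each; for Wsb1 this motif, and for Leng8 the shorter one named next, is in 1 of them. A stretch just after the start of the Wsb1 window with the motif exactly matched no GENCODE vM21 transcript of Wsb1. That of its other window, which holds neither motif, matched at least 1. The Ints6l window and the other Leng8 window had no such match either. The check needs an exact match of a short stretch, so it does not tell which start is used. By its coordinates, the Wsb1 window with the motif lies upstream of the other Wsb1 window. The shorter TGACGT, searched on both strands and contained in the longer motif, occurred in 6 of the 9, against 12.3%: the same 3 genes and Rnpc3, Ccnl2 and Leng8. The windows of Clk2, Clk3 and Ints6l held neither, and a match or its lack describes letters only. The shares over all tested genes were not matched for GC content. The 250 bases before the start are shown for the 3 genes with the longer motif, with both windows of Wsb1, and for Leng8, which held the shorter one at 2 places, 81 and 31 bases before the start. Capitals mark the motif (ACGTCA is TGACGT on the other strand). In Ccnl1 it begins 18 bases before the start, in Wsb1 38 and in Clk4 65. The windows are chr11:51262864-51263113 (plus strand) for Clk4, chr3:65958250-65958499 (minus strand) for Ccnl1, chr11:79254696-79254945 and chr11:79243025-79243274 (minus strand) for Wsb1 and chr7:4136806-4137055 (plus strand) for Leng8.
Clk4: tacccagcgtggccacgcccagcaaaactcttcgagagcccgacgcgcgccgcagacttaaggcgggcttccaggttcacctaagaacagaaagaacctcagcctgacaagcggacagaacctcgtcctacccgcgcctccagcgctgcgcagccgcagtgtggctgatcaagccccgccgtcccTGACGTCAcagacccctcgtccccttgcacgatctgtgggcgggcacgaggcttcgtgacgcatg
Ccnl1: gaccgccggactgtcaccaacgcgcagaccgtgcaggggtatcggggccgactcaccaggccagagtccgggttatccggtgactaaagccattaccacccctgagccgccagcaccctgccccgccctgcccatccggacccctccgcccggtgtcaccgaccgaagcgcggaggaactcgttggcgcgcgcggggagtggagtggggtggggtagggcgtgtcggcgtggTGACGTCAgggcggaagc
Wsb1, window with the motif: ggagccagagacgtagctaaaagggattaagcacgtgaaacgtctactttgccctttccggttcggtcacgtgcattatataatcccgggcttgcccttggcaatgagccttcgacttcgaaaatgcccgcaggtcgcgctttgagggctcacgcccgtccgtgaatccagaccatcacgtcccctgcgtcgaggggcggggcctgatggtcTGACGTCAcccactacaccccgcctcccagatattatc
Wsb1, other window: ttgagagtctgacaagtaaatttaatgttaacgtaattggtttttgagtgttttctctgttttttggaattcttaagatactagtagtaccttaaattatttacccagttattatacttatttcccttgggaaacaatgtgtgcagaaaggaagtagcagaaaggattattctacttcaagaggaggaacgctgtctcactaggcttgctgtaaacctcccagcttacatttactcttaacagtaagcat
Leng8: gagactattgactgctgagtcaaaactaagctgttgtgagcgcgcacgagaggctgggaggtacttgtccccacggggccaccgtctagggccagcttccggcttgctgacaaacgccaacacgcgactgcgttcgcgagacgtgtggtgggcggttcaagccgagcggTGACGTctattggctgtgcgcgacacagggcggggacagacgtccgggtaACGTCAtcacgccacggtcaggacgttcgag

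The libraries held 14575416 to 17865150 counts, and levels are given as CPM, counts per 1000000 of the TMM-scaled library. Cd5l had 2553, 2822 and 3551 counts in 5xFAD/Cd5l tg/wt libraries, 0 in each 5xFAD library and 0, 1 and 0 in wild-type libraries, and reads of the transgene and of the endogenous gene cannot be told apart. Summed markers of neurons lay at 6931 to 7523, 6927 to 7245 and 7031 to 7369 CPM in 5xFAD/Cd5l tg/wt, 5xFAD and wild-type libraries. Summed markers of cerebellar granule cells lay at 51.7 to 101 CPM, 94.0 to 119 CPM and 96.7 to 770 CPM in the same order of genotypes, the last being wild-type library 3. Earlier results of these data set 3 libraries apart by genes that mark brain regions, and some values are also given without them. They are libraries 2 and 3 of 5xFAD/Cd5l tg/wt and library 3 of the wild-type. Without them library 1 is the only one of 5xFAD/Cd5l tg/wt, and its spread is taken from the other genotypes. The comparisons of that genotype then rest on 1 library, so no counts of passing genes are given for its lists.

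Because low values in 5xFAD and higher ones with Cd5l chose the genes, those differences are given as a description with no test. Clk1, the CLK gene with the highest level per length in each genotype, had 106, 144 and 140 CPM in 5xFAD/Cd5l tg/wt libraries, 53.9, 53.5 and 54.0 CPM in 5xFAD libraries and 110, 117 and 119 CPM in wild-type libraries (chromosome 1, 58449348 to 58463225, GRCm39). Clk4, its closest relative, had 51.5, 75.9 and 74.4 CPM in 5xFAD/Cd5l tg/wt libraries, 30.4, 26.7 and 29.9 CPM in 5xFAD libraries and 57.7, 63.8 and 57.4 CPM in wild-type libraries (chromosome 11, 51152557 to 51172593). For both genes the 5xFAD libraries lay below every library of the other genotypes, and the 5xFAD/Cd5l tg/wt and wild-type libraries overlapped, with 5xFAD/Cd5l tg/wt library 1 lowest of all 6. Clk1 in 5xFAD was at 41.5% of the 5xFAD/Cd5l tg/wt mean and 46.7% of the wild-type mean, and Clk4 at 43.1% and 48.6%.

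Clk2 and Clk3, the other kinases of the family, differed less. Clk2 had 22.8, 29.5 and 33.2 CPM in 5xFAD/Cd5l tg/wt libraries, 21.4, 17.9 and 19.4 CPM in 5xFAD libraries and 25.4, 27.4 and 25.3 CPM in wild-type libraries (chromosome 3, 89072102 to 89084228). Clk3 had 53.9, 66.2 and 70.2 CPM in 5xFAD/Cd5l tg/wt libraries, 46.8 to 50.9 CPM in the 3 5xFAD libraries and 57.1, 67.9 and 66.9 CPM in wild-type libraries (chromosome 9, 57657907 to 57673143). Their 5xFAD libraries were again below all others, but the gap from the highest 5xFAD library to 5xFAD/Cd5l tg/wt library 1 was small. Clk2 in 5xFAD was at 75.1% and Clk3 at 77.0% of the wild-type mean. Clk3 overlaps Edc3 on the opposite strand, and Edc3 had 28.6 ± 1.63 CPM in 5xFAD/Cd5l tg/wt, 28.6 ± 2.33 CPM in 5xFAD and 27.5 ± 0.83 CPM in wild-type libraries (SD, n = 3 each).

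**Figure D1:**
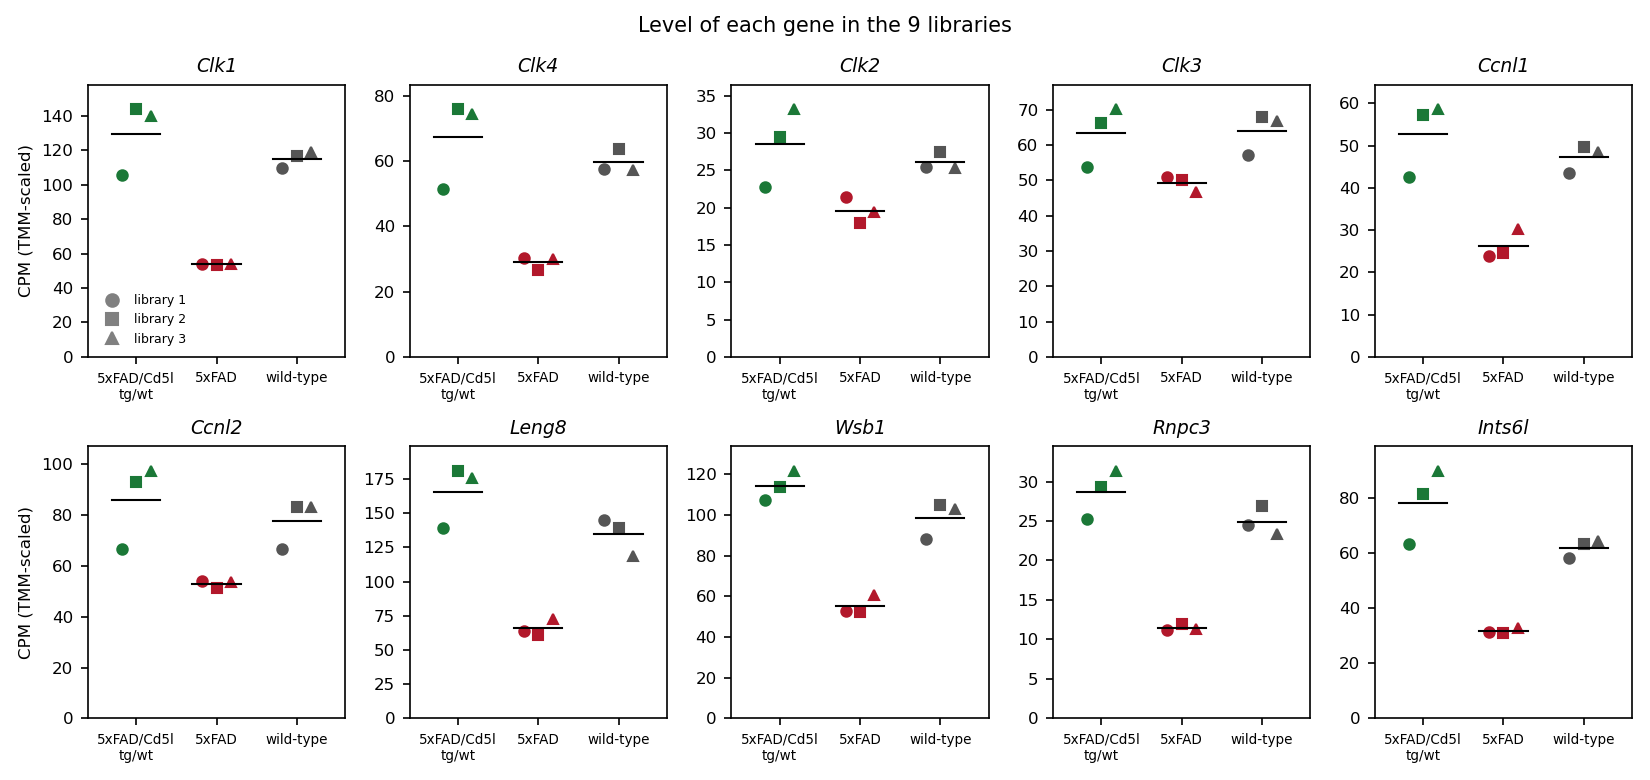
Level of each of the 10 genes in CPM (TMM-scaled, y axes from 0) in 5xFAD/Cd5l tg/wt, 5xFAD and wild-type libraries. Circles, squares and triangles are libraries 1, 2 and 3 of a genotype and bars are means of 3. In every panel the 5xFAD libraries lie below all others, and 5xFAD/Cd5l tg/wt library 1 is the lowest of its genotype.

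Of the cyclin L genes, Ccnl1 lay farther below the wild-type level in 5xFAD than Ccnl2. Ccnl1 had 42.5, 57.3 and 58.6 CPM in 5xFAD/Cd5l tg/wt libraries, 24.0, 24.5 and 30.2 CPM in 5xFAD libraries and 43.5, 49.8 and 48.5 CPM in wild-type libraries (chromosome 3, 65853572 to 65865670). Ccnl2 had 66.7, 93.1 and 97.4 CPM in 5xFAD/Cd5l tg/wt libraries, 54.1, 51.1 and 53.8 CPM in 5xFAD libraries and 66.6, 83.3 and 83.3 CPM in wild-type libraries (chromosome 4, 155896946 to 155909000). Ccnl1 in 5xFAD was at 55.5% and Ccnl2 at 68.2% of the wild-type mean, and neither gene had a 5xFAD library inside the range of another genotype. Ccnl1 overlaps the lncRNA gene Gm37305 on the opposite strand, which held 119 counts a library on average, against 672 for Ccnl1.

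Leng8, the SAC3-domain gene, had 139, 181 and 176 CPM in 5xFAD/Cd5l tg/wt libraries, 63.9, 60.9 and 72.6 CPM in 5xFAD libraries and 145, 139 and 119 CPM in wild-type libraries (chromosome 7, 4140038 to 4151176). Wsb1, the ubiquitin ligase receptor gene, had 107, 114 and 122 CPM in 5xFAD/Cd5l tg/wt libraries, 52.9, 52.3 and 60.9 CPM in 5xFAD libraries and 88.4, 105 and 103 CPM in wild-type libraries (chromosome 11, 79130198 to 79145497). Wsb1 was the 1 gene of the 10 whose 5xFAD/Cd5l tg/wt libraries all lay above the wild-type libraries. Rnpc3, the minor-spliceosome gene, had 25.3, 29.3 and 31.4 CPM in 5xFAD/Cd5l tg/wt libraries, 11.2, 11.9 and 11.3 CPM in 5xFAD libraries and 24.5, 26.9 and 23.3 CPM in wild-type libraries (chromosome 3, 113398716 to 113423798). Ints6l, the Integrator-related gene on the X chromosome, had 63.1, 81.3 and 89.7 CPM in 5xFAD/Cd5l tg/wt libraries, 31.3, 30.9 and 32.9 CPM in 5xFAD libraries and 58.0, 63.1 and 64.4 CPM in wild-type libraries (55500217 to 55553203). These 4 genes were at 49.0% (Leng8), 56.1% (Wsb1), 46.0% (Rnpc3) and 51.3% (Ints6l) of the wild-type mean in 5xFAD, with no 5xFAD library inside the range of another genotype.

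In 5xFAD against wild-type the log2 fold changes of the 10 genes ran from -1.12 (Rnpc3) to -0.38 (Clk3) with a median of -0.91, where the median over all tested genes was -0.01. For all 10 the libraries of the genotypes did not overlap, which held for 13.9% of all genes in that direction. In 5xFAD/Cd5l tg/wt against 5xFAD the log2 fold changes ran from 0.37 (Clk3) to 1.33 (Leng8) with a median of 1.13, against 0.01 for all genes. The libraries of all 10 again did not overlap, against 16.6% of all genes in that direction. Over the whole table, 360 genes (2.05%) were lower in 5xFAD and higher with the transgene, both at an adjusted p under 0.05 by edgeR's quasi-likelihood test. Clk2 and Clk3 were not among these 360, as neither passed in 5xFAD against wild-type. These contrasts chose the genes and both use the same 5xFAD libraries, so nothing is read from these counts or from the size of the differences. With the 3 libraries named above left out, the 10 log2 fold changes ran from -1.15 to -0.33 with a median of -0.87 in 5xFAD against wild-type. In 5xFAD/Cd5l tg/wt against 5xFAD they then ran from 0.11 to 1.12 with a median of 0.88. That value rests on library 1 alone, the lowest of its genotype for all 10 genes.

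**Figure D2:**
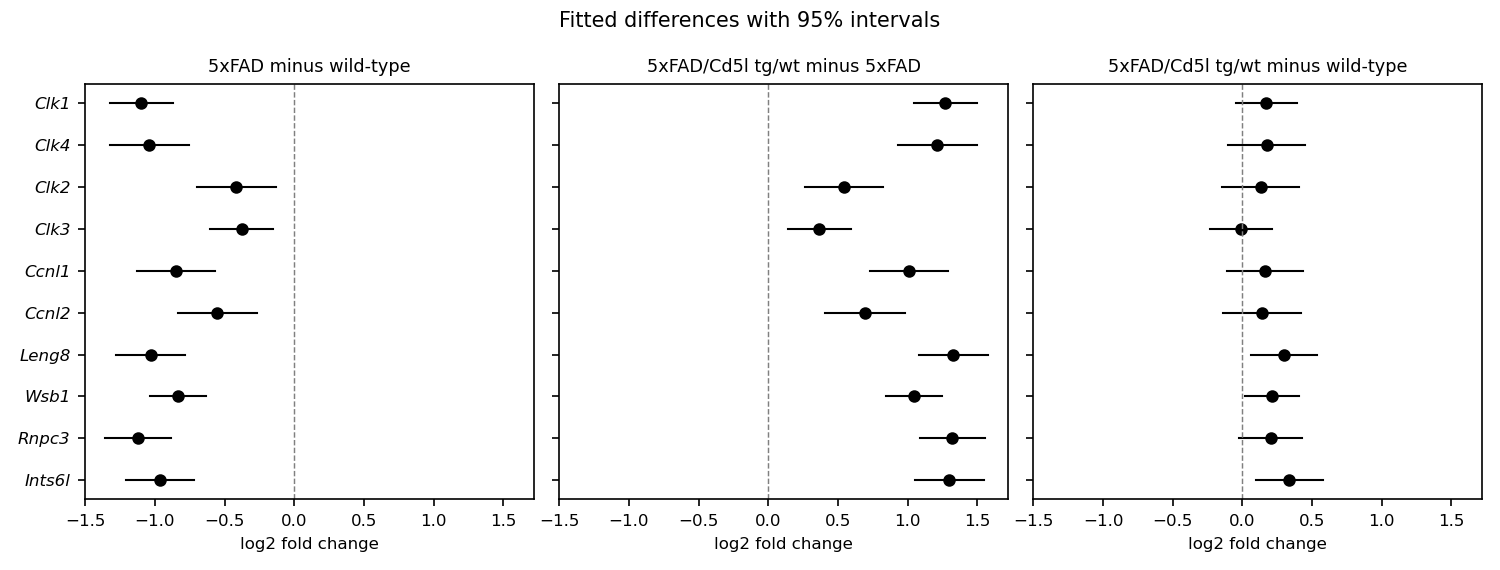
Fitted log2 fold changes of the 10 genes (x axis; first-named genotype minus second) with 95% intervals, from all 9 libraries. The left and middle contrasts chose the genes and are shown as a description, and in the right one every point lies between -0.01 and 0.34.

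The difference between 5xFAD/Cd5l tg/wt and wild-type was not named by the choice and was tested gene by gene, although it is the sum of the other 2 contrasts and shares all their libraries. No gene passed: 0 of 10 had an adjusted p under 0.05 by edgeR's quasi-likelihood test, where 1.58% of all genes were called, and DESeq2 also called 0. At an unadjusted p under 0.05 there were 3 of the 10, Leng8, Wsb1 and Ints6l. Log2 fold changes were positive for 9 genes and -0.01 for Clk3, with a median of 0.17, against 0.0008 for all genes. Ints6l had the largest, 0.34 ± 0.11 (SE; 95% interval 0.10 to 0.58, adjusted p = 0.202), or 126% of the wild-type mean. Leng8 differed by 0.30 ± 0.11 (interval 0.06 to 0.54, adjusted p = 0.280) and Wsb1 by 0.21 ± 0.09 (interval 0.02 to 0.41, adjusted p = 0.357). For Clk1 the interval ran from -0.05 to 0.39, for Clk4 from -0.10 to 0.45, for Clk2 from -0.14 to 0.41, for Clk3 from -0.23 to 0.21, for Ccnl1 from -0.11 to 0.43, for Ccnl2 from -0.14 to 0.42 and for Rnpc3 from -0.02 to 0.43. Each of these 7 intervals includes 0, and 6 of them reach 0.39 to 0.45, so equal levels are not shown. The 5xFAD/Cd5l tg/wt and wild-type libraries of 1 gene, Wsb1, did not overlap, against 7.93% of all genes higher without overlap.

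These values depended on single libraries of 5xFAD/Cd5l tg/wt. The median log2 fold change of the 10 genes against wild-type was 0.29 without its library 1 and 0.10 without library 2 or library 3. 5xFAD/Cd5l tg/wt library 1 was the lowest of its genotype for all 10 genes, and library 3 was the highest for 7 and library 2 for 3. The mean log2 deviation of the 10 genes from their means over 9 libraries was 0.13 in library 1, 0.49 in library 2 and 0.55 in library 3 of 5xFAD/Cd5l tg/wt, -0.61, -0.66 and -0.55 in 5xFAD libraries 1 to 3, and 0.14, 0.29 and 0.22 in wild-type libraries 1 to 3. 5xFAD/Cd5l tg/wt library 1 thus lay at the level of the lowest wild-type library, and the other 2 of its genotype above every wild-type library. Without library 1, 4 of the 10 genes were above wild-type past the threshold, namely Clk1, Clk4, Leng8 and Ints6l. With the 3 libraries named above left out, the 1 remaining library of 5xFAD/Cd5l tg/wt being assumed to vary like the other genotypes, Clk1, Clk2, Clk4, Ccnl1, Ccnl2, Leng8 and Rnpc3 had negative log2 fold changes. The coefficient of variation over libraries was 6.29% (Wsb1) to 20.4% (Clk4) in 5xFAD/Cd5l tg/wt, 0.45% (Clk1) to 13.3% (Ccnl1) in 5xFAD and 4.31% (Clk1) to 12.4% (Ccnl2) in wild-type libraries.

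Per length, as RPKM (CPM per kilobase of the deposited gene length), Wsb1 stood highest of the 10 genes, at 28.7 ± 1.81 in 5xFAD/Cd5l tg/wt, 13.9 ± 1.20 in 5xFAD and 24.8 ± 2.27 in wild-type libraries. Leng8 followed at 25.8 ± 3.57, 10.3 ± 0.95 and 21.0 ± 2.15 RPKM in the same order of genotypes, and the ranges of the 2 genes overlapped in 5xFAD/Cd5l tg/wt and wild-type libraries. Next came Ccnl2 (16.2 ± 3.15, 10.04 ± 0.31 and 14.7 ± 1.83 RPKM) and Clk1 (16.0 ± 2.58, 6.62 ± 0.03 and 14.2 ± 0.61 RPKM), whose ranges overlapped except in 5xFAD. In 5xFAD the ranges of Leng8 and Ccnl2 overlapped as well. Below these, Ints6l, Ccnl1 and Clk3 followed Clk4 by mean in 5xFAD/Cd5l tg/wt and wild-type libraries. There the range of Ccnl1 overlapped those of Ints6l and Clk3. In 5xFAD/Cd5l tg/wt libraries the range of Clk4 also overlapped those of Ccnl2, Clk1, Ints6l and Ccnl1. Clk2 lay below Clk3 without overlap in every genotype. Rnpc3 was lowest in each genotype, at 4.33 ± 0.47, 1.73 ± 0.06 and 3.76 ± 0.28 RPKM (SD, n = 3 each), overlapping Clk2 in 5xFAD/Cd5l tg/wt libraries alone. Clk3 stood below Clk4, Ints6l and Ccnl1 in 5xFAD/Cd5l tg/wt and wild-type means but above all 3 in 5xFAD.

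The make-up of the CLK family therefore differed in 5xFAD. The 4 genes summed to 40.4 ± 6.85 RPKM in 5xFAD/Cd5l tg/wt, 21.1 ± 0.73 RPKM in 5xFAD and 37.0 ± 1.81 RPKM in wild-type libraries. Clk1 made up 39.5% ± 0.83 of that sum in 5xFAD/Cd5l tg/wt, 31.3% ± 1.00 in 5xFAD and 38.4% ± 1.08 in wild-type libraries, and Clk4 28.6% ± 1.19, 23.7% ± 1.06 and 27.9% ± 1.11 in the same order. Clk3 made up 18.7% ± 0.93, 27.6% ± 1.25 and 20.5% ± 1.02, and Clk2 13.3% ± 0.73, 17.4% ± 0.95 and 13.3% ± 0.45. Clk1 and Clk4 kept nearly the same ratio, 1.39 ± 0.07 in 5xFAD/Cd5l tg/wt, 1.33 ± 0.09 in 5xFAD and 1.38 ± 0.09 in wild-type libraries, with overlapping ranges. The ratio of Clk1 to Clk2 was 2.98 ± 0.22, 1.80 ± 0.15 and 2.89 ± 0.16, that of Clk4 to Clk3 1.54 ± 0.14, 0.86 ± 0.08 and 1.37 ± 0.11, and that of Ccnl1 to Ccnl2 0.54 ± 0.02, 0.44 ± 0.05 and 0.54 ± 0.03, in the same order of genotypes. For these 3 ratios no 5xFAD library reached the range of another genotype. They rest on the values that chose the genes and carry no test.

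**Figure D3:**
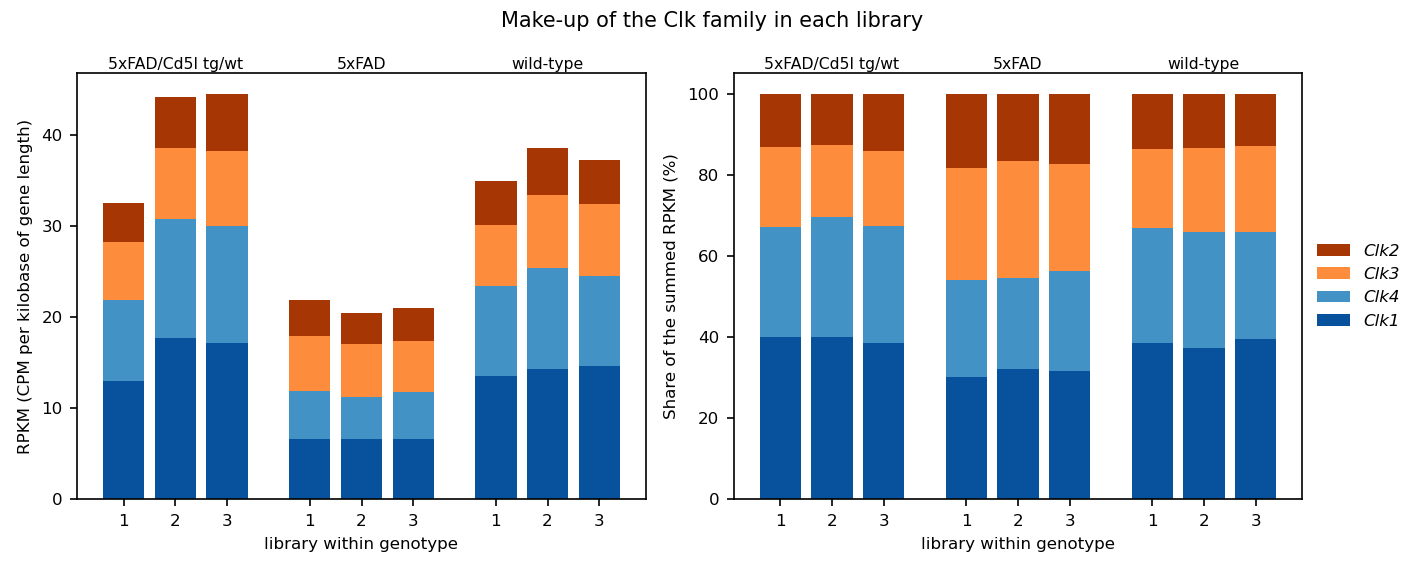
RPKM of Clk1, Clk4, Clk3 and Clk2, stacked, in each library (left), and the share of each gene in the sum in percent (right), by genotype and library number. In the 5xFAD libraries the sum is lowest, at 21.1 RPKM on average, and the shares of Clk3 and Clk2 are larger than in the others.

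Genes of the same pathways were tested as 9 lists of 146 genes, of which 139 were tested and the 10 described genes were no part. The lists were drawn up with earlier results of these data known, so their counts are no independent support. In 5xFAD against wild-type 26 of the 139 fell and 0 rose, with a median log2 fold change of -0.09 (edgeR's quasi-likelihood test, adjusted p under 0.05, where 2.44% of all genes fell and 1.06% rose). With the transgene, in 5xFAD/Cd5l tg/wt mice compared with 5xFAD mice, 36 rose and 1 fell, with a median of 0.09, where 5.34% of all genes rose and 0.888% fell. In 5xFAD/Cd5l tg/wt against wild-type 0 of the 139 passed with edgeR and 1 with DESeq2, and 11 had an unadjusted p under 0.05. The first 2 comparisons share the 5xFAD libraries. The 26 genes that fell were 12 without wild-type library 2, 9 without 5xFAD library 1 and 10 without 5xFAD library 2, all of them lower.

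Most of the genes past the threshold belonged to 1 list, genes other than the 10 that are known for retained or detained introns. Of its 27 genes 16 fell in 5xFAD against wild-type, 0 rose and 11 did not pass, with a median of -0.45, and with the transgene 21 rose, 0 fell and 6 did not pass, with a median of 0.53. Pnisr, which encodes an SR-like nuclear protein, fell by 0.86 ± 0.11 on the log2 scale in 5xFAD (97.9 ± 4.90 CPM, against 177.9 ± 16.2 CPM in wild-type libraries; adjusted p = 0.000772, edgeR) and rose by 1.16 ± 0.11 to 218.6 ± 33.7 CPM in 5xFAD/Cd5l tg/wt. Luc7l3 and Rbm25, both for proteins that bind the U1 splicing particle or its partners, fell by 0.69 ± 0.10 and 0.50 ± 0.08 and rose by 0.81 ± 0.10 and 0.66 ± 0.08 in the same comparisons, and Rsrp1 fell by 0.63 ± 0.10 and rose by 0.90 ± 0.10. Without 5xFAD/Cd5l tg/wt library 1 the list had 18 falling and 23 rising genes, without wild-type library 2 8 and 19, without 5xFAD library 1 6 and 16, and without 5xFAD library 2 7 and 15.

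Of the 20 genes for SR proteins and their relatives, the substrates of CLK kinases, 6 fell in 5xFAD, 0 rose and 14 did not pass, and 7 rose with the transgene, 0 fell and 13 did not pass. Srsf5, an SR splicing factor gene, averaged 273.2 ± 35.2 CPM in 5xFAD/Cd5l tg/wt, 149 ± 19.4 CPM in 5xFAD and 217 ± 23.7 CPM in wild-type libraries, and fell by 0.54 ± 0.12 and rose by 0.88 ± 0.12. Srrm1, Srrm2 and Son, genes of large speckle proteins, fell by 0.45 ± 0.08, 0.40 ± 0.08 and 0.35 ± 0.07 in 5xFAD and rose by 0.63 ± 0.08, 0.53 ± 0.08 and 0.49 ± 0.07 in 5xFAD/Cd5l tg/wt. The 6 falling SR genes were 1 without wild-type library 2 and 0 without 5xFAD library 1 or 2, and the 7 rising ones were 10 without 5xFAD/Cd5l tg/wt library 1. Son stands in both of these lists.

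**Figure D4:**
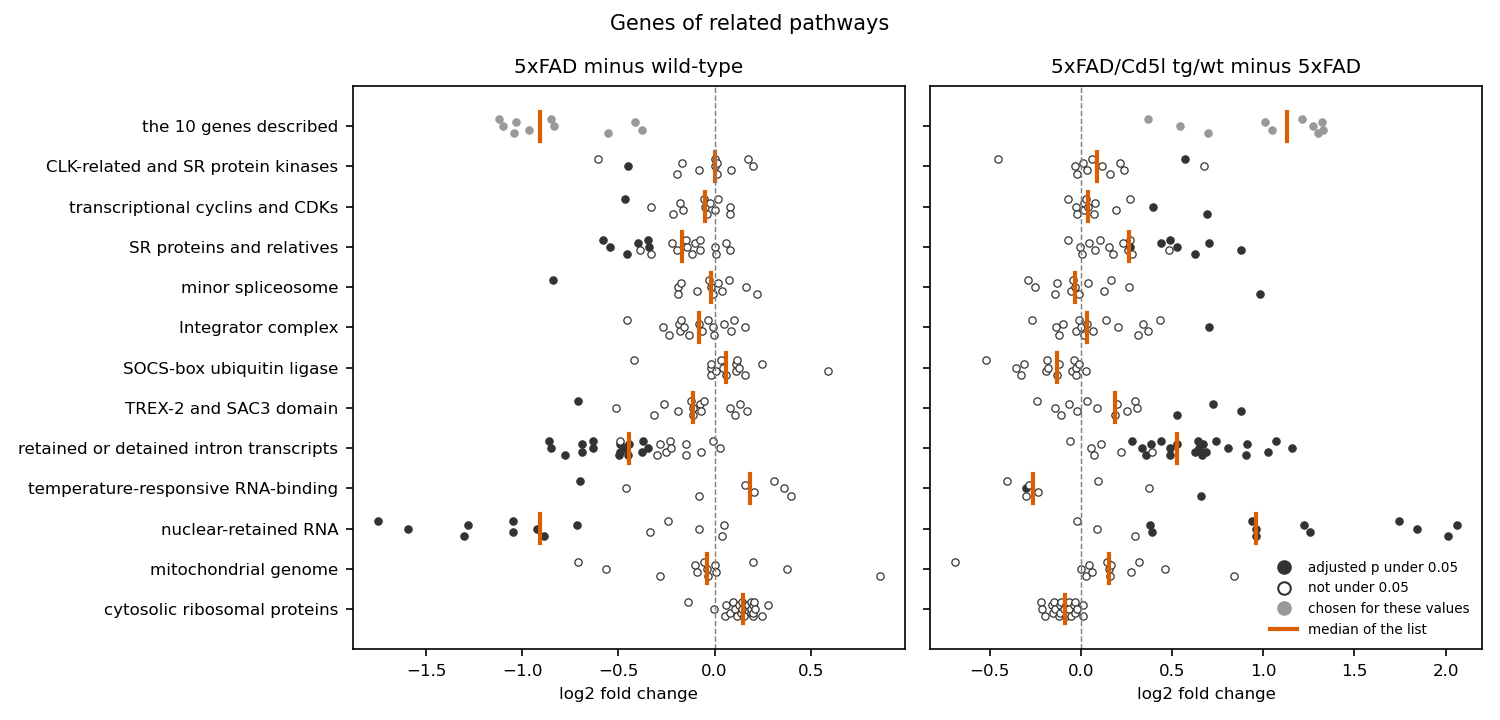
Log2 fold changes (x axis; first-named genotype minus second) of the 10 genes and of tested genes in 12 lists, the 9 pathway lists above nuclear-retained RNA, mitochondrial genome and ribosomal protein genes. Filled dark points had an adjusted p under 0.05, grey points are the 10 genes, which were chosen for these values, and vertical bars are medians. The retained-intron list, at -0.45 and 0.53, and the nuclear-retained RNA list, at -0.91 and 0.96, lie farthest from 0 apart from the 10 genes.

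The other machinery of these genes mostly did not pass. Of 12 related kinases, Prpf4b, a kinase of the spliceosome, fell by 0.45 ± 0.09 in 5xFAD and rose by 0.57 ± 0.09 with the transgene (104 ± 10.99 CPM in 5xFAD/Cd5l tg/wt, 70.3 ± 4.15 CPM in 5xFAD and 95.9 ± 4.91 CPM in wild-type libraries), and the other 11 did not pass in either comparison. Prpf4b did not pass in 5xFAD against wild-type when 5xFAD library 1, 5xFAD library 2 or wild-type library 2 was left out, and its difference with the transgene was 0.37 with the 3 libraries named above left out. Among these, the SR protein kinase genes Srpk1 and Srpk2 had log2 fold changes of -0.17 and 0.01 in 5xFAD against wild-type and of 0.22 and 0.06 in 5xFAD/Cd5l tg/wt against 5xFAD, and Dyrk1a had 0.01 and 0.03. Of 13 transcriptional cyclins and CDKs, Ccnt2, a cyclin of the elongation kinase P-TEFb, fell by 0.46 ± 0.10 and rose by 0.69 ± 0.10, and Cdk8, a Mediator kinase, rose by 0.39 ± 0.09 and had -0.33 in 5xFAD against wild-type without passing. The fall of Ccnt2 did not pass with length offsets, without wild-type library 2 or without any 1 of the 5xFAD libraries, and the rise of Cdk8 passed in 14 of 21 alternatives. Cdk11b, which encodes the kinase partner of cyclin L, averaged 67.3 ± 2.29 CPM in 5xFAD/Cd5l tg/wt, 64.2 ± 1.60 CPM in 5xFAD and 71.8 ± 2.38 CPM in wild-type libraries, and did not pass in either comparison (edgeR adjusted p = 0.256 in 5xFAD against wild-type, and with the transgene 0.582).

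Of 13 tested minor-spliceosome genes 1 fell and 1 rose, in both cases Snrnp48, which encodes a protein of the U11/U12 particle like Rnpc3. It averaged 25.6 ± 2.51 CPM in 5xFAD/Cd5l tg/wt, 12.9 ± 0.53 CPM in 5xFAD and 23.2 ± 2.86 CPM in wild-type libraries, and fell by 0.84 ± 0.12 (adjusted p = 0.00169) and rose by 0.98 ± 0.12 (adjusted p = 0.000623). Of 17 Integrator genes 0 fell and 1 rose, Ints13, at 0.70 ± 0.12, and the count of rising genes was 5 without 5xFAD/Cd5l tg/wt library 1. In 5xFAD against wild-type Ints13 passed in 5 of 21 alternatives, DESeq2 among them. Ints6, the closest relative of Ints6l, had -0.18 ± 0.10 and 0.34 ± 0.10 without passing (adjusted p = 0.381 and 0.0562). The SOCS-box ligase list had 0 of 15 past the threshold in either comparison, with 2 and 5 at an unadjusted p under 0.05. With the transgene 1 of them was lower with RLE scaling, the filter of 1 CPM, DESeq2, limma-voom or length offsets, or when library 3 with the transgene or wild-type library 3 was left out, and 2 were with no filter. In 5xFAD against wild-type 1 was higher with no filter. Wsb2, the paralog of Wsb1, averaged 272 ± 21.1, 278 ± 6.18 and 267 ± 24.2 CPM in 5xFAD/Cd5l tg/wt, 5xFAD and wild-type libraries. Of 15 genes of the SAC3-domain and RNA export list, Thoc1, which encodes a subunit of the THO export complex, fell by 0.71 ± 0.10 and rose by 0.88 ± 0.10, and Nxf1, the main mRNA export receptor gene, and Zfc3h1 rose by 0.73 ± 0.13 and 0.52 ± 0.12. The 3 rising genes of this list were 1 without 5xFAD library 2 and 5 without 5xFAD/Cd5l tg/wt library 1, and the 1 falling gene was 3 with total-count scaling, with the 6 libraries compared alone or without 5xFAD/Cd5l tg/wt library 1. Thoc1 passed in all 21 alternatives in both comparisons. Of 8 temperature-responsive genes, Rbm3, which encodes a cold-induced RNA-binding protein, fell by 0.70 ± 0.10 and rose by 0.66 ± 0.10, and the chaperone gene Hspa8 fell by 0.30 ± 0.08 with the transgene (a mean of 1543 ± 119 CPM with the transgene, against 1904 ± 127 CPM in 5xFAD libraries). Hspa8 did not pass when library 2 with the transgene or 5xFAD library 1 or 2 was left out, and 3 genes of the list were lower with no filter, with DESeq2 or without 5xFAD library 3.

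Several measures of library content also differed between the genotypes. The nuclear-retained RNA list summed to 6129 to 8087 CPM in 5xFAD/Cd5l tg/wt, 3451 to 3858 CPM in 5xFAD and 5654 to 6993 CPM in wild-type libraries, and 9 of its 14 genes fell in 5xFAD and 11 rose with the transgene, with 0 in the other direction. Malat1, a speckle RNA, averaged 461 ± 147 CPM in 5xFAD/Cd5l tg/wt, 110.3 ± 10.2 CPM in 5xFAD and 371 ± 44.6 CPM in wild-type libraries, and Meg3, Firre and Xist passed in both comparisons. Long non-coding RNA genes took 1.55% ± 0.14 of counts in 5xFAD/Cd5l tg/wt, 1.17% ± 0.03 in 5xFAD and 1.46% ± 0.10 in wild-type libraries. Nuclear rRNA genes took 0.096% ± 0.028, 0.237% ± 0.045 and 0.132% ± 0.108 in the same order, and wild-type library 3, at 0.256%, lay inside the 5xFAD range. With the mitochondrial, rRNA and nuclear-retained genes left out before scaling, the median log2 fold changes of the 10 genes were -0.91 and 1.13 in the contrasts that chose them, and with offsets that take out trends on gene length -0.85 and 1.07. The 10 genes were 3987 to 8450 bases long with a median of 6196, against 4017 for all tested genes. The part that nuclear RNA content has in the levels of the 10 genes was not tested.

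Of the cell type markers, 8 of 8 microglial genes rose in 5xFAD against wild-type and 0 of 8 passed in 5xFAD/Cd5l tg/wt against 5xFAD, with sums of 695 to 794 CPM in 5xFAD/Cd5l tg/wt, 589 to 755 CPM in 5xFAD and 324 to 357 CPM in wild-type libraries. Endothelial markers differed in the same direction as the 10 genes, with 5 of 7 lower in 5xFAD and 6 of 7 higher with the transgene, and sums of 262 to 296, 154 to 187 and 250 to 279 CPM in the same order of genotypes. Their part in the result was not tested. Markers of neurons (0 of 8), astrocytes (0 of 6), oligodendrocytes (0 of 6), choroid plexus (0 of 5) and blood (0 of 2 tested) did not pass in either comparison, with 0, 1, 0, 0 and 2 genes at an unadjusted p under 0.05 in 5xFAD against wild-type and 3, 1, 2, 1 and 0 in 5xFAD/Cd5l tg/wt against 5xFAD, and neither did the 13 mitochondrial genes (0 and 2) or the 24 ribosomal protein genes (8 and 6). Of 7 cerebellar granule cell markers 1 fell in 5xFAD, where wild-type library 3 held the highest sum.

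The chromosomal surroundings of the 10 genes were read from the deposited coordinates as the nearest tested protein-coding gene on each side. Of these 20 neighbours 2 fell and 0 rose in 5xFAD against wild-type, where 2.44% of all genes fell and 1.06% rose. Their median log2 fold change was 0.03. With the transgene 3 rose and 1 fell, where 5.34% of all genes rose and 0.888% fell, and the median was -0.001. Scamp3 starts 551 bases from Clk2, and averaged 40.5 ± 1.96 CPM in 5xFAD/Cd5l tg/wt, 43.1 ± 2.57 CPM in 5xFAD and 40.9 ± 0.54 CPM in wild-type libraries. Ttyh1 ends 330 bases from Leng8, and averaged 441 ± 2.95, 451 ± 8.53 and 439 ± 10.2 CPM in the same order. Both neighbours of Rnpc3 fell in 5xFAD and rose with the transgene. Amy1, an amylase gene on the same strand, overlaps Rnpc3 and averaged 15.9 ± 2.53 CPM in 5xFAD/Cd5l tg/wt, 6.11 ± 1.16 CPM in 5xFAD and 17.1 ± 2.66 CPM in wild-type libraries (log2 fold changes 1.39 and -1.49). How reads in the shared bases were assigned is not known, so the counts of Rnpc3 and Amy1 are uncertain to that extent. Col11a1, a collagen gene 400390 bases away on the other strand, was at 12.1 ± 1.20, 3.24 ± 0.75 and 9.65 ± 1.71 CPM. Lekr1, 114795 bases from Ccnl1, rose by 0.84 with the transgene, and Aurkaip1, next to Ccnl2, fell by 0.32.

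**Figure D5:**
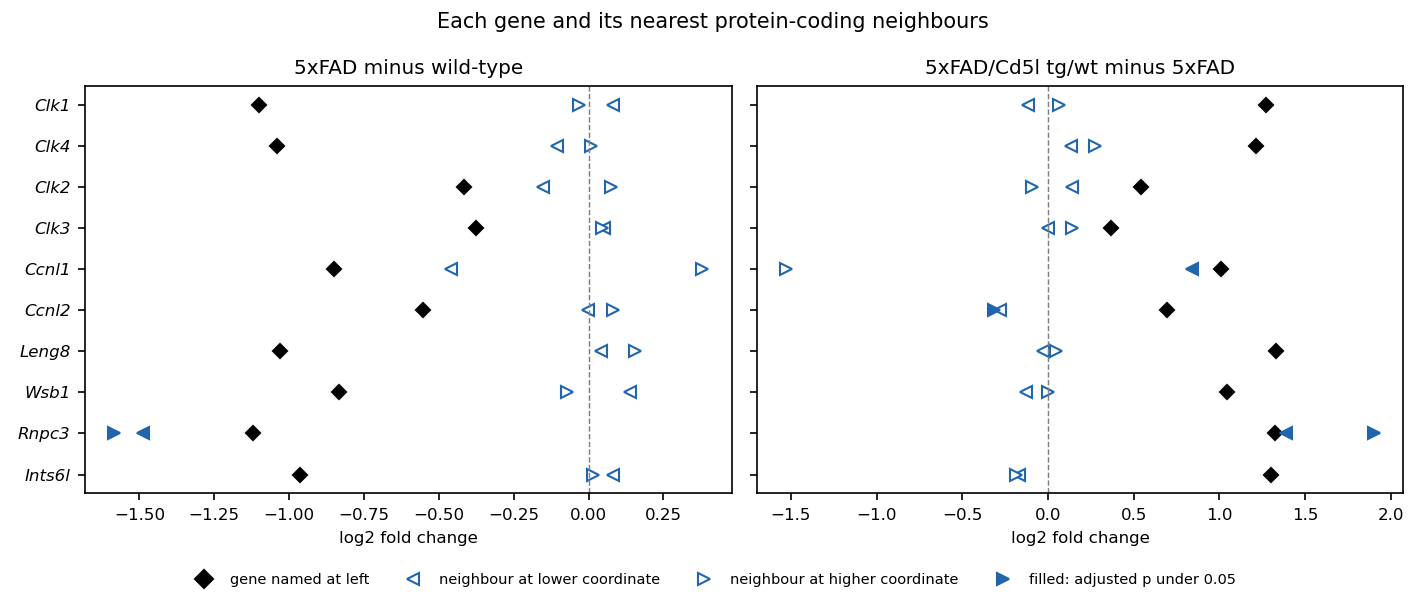
Log2 fold changes (x axis; first-named genotype minus second) of each of the 10 genes (diamonds) and of its nearest tested protein-coding neighbours (triangles pointing to the side they lie on). Filled triangles had an adjusted p under 0.05. The diamonds lie from -1.12 to -0.38 and from 0.37 to 1.33, and most triangles lie near 0 apart from those of Rnpc3 and Ccnl1.

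Across 12223 genes of at least 5 CPM, those most like the mean profile of the 10 genes were sought by the root mean square difference of log2 CPM, centred on each gene's mean, over the 9 libraries. Among the 8 nearest were Nktr (0.071), Pnisr (0.073), Prpf39 (0.076), Stard9 (0.079), Atp11b (0.082), Akap8 (0.083) and Cep70 (0.086). Among the 10 genes themselves the difference from their mean ran from 0.073 (Ccnl1) and 0.089 (Wsb1) to 0.219 (Clk2) and 0.276 (Clk3), so that Ccnl1 followed the mean most closely and Clk3 least. Nktr, which encodes a cyclophilin-related nuclear protein and stands in the retained-intron list with Pnisr, averaged 142 ± 30.4 CPM in 5xFAD/Cd5l tg/wt, 67.3 ± 1.69 CPM in 5xFAD and 121 ± 13.6 CPM in wild-type libraries. Prpf39, for a relative of a yeast protein of the U1 splicing particle, averaged 55.3 ± 8.97, 29.8 ± 1.09 and 50.2 ± 1.22 CPM, and Atp11b, for a phospholipid flippase, at 105 ± 12.4, 50.5 ± 3.61 and 92.9 ± 3.37 CPM in the same order. These genes were picked for this likeness, and all libraries are those in which the 10 genes were chosen.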

How the data were processed

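Total RNA of 9 mouse brains without cerebellum was sequenced on an Illumina platform, per the labels' protocols. The authors deposited 1 table of raw read counts per gene with coordinates and lengths, and the genome build is GRCm39, per the submitters' processing notes. Aligner, counter, strandedness and the treatment of multi-hit reads were not given in the sources used here. Groups follow the genotype labels.

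The 10 genes, the gene lists and the alternatives were chosen with earlier results of these data known. Genes were kept by filterByExpr (minimum count 10, minimum total 15), with 17575 genes left and no library losing more than 0.161% of its counts. TMM factors were 0.987 to 1.018, and the 9 libraries entered 1 fit of edgeR's quasi-likelihood test (edgeR 4.0.16, limma 3.58.1, R 4.3.3), with Benjamini-Hochberg adjustment over all tested genes and a threshold of 0.05. The test was tried on simulated counts. Intervals are 95% and come from the fit. RPKM used the deposited lengths. From each list, up to 4 passing genes were named by their p, smallest first, with the paralogs Ints6, Wsb2, Srpk1, Srpk2, Dyrk1a and Cdk11b whatever their p, the 8 genes nearest in profile (log2 CPM with a prior count of 2) and the nearest neighbours. Of the genes nearest in profile, 1 is not reported here. Libraries with the same number had correlations of -0.100 to 0.154 after removal of genotype means, so comparisons were not paired. Replicates differed beyond counting noise (chi-square per gene 3.31 to 14.8). Alternatives were scaling by RLE, the upper quartile or total counts, other filters, DESeq2 1.42.0, limma-voom, a replicate block, length offsets, gene removal, the 6 libraries compared alone, and leaving libraries out. Figures were drawn with matplotlib 3.10.9.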

Additional observations from a re-analysis of the deposited data

How the results depend on the processing

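In 5xFAD/Cd5l tg/wt against wild-type, the count of 0 of the 10 was 2 with no filter on low counts (Leng8 and Ints6l) and 0 to 4 when 1 library was left out, with 4 without 5xFAD/Cd5l tg/wt library 1. There the pathway count of 0 was 6 with no filter, 1 with DESeq2 and 0 to 4 with 1 library left out. The 26 pathway genes of 5xFAD against wild-type were 9 to 33 with 1 library left out. With wild-type library 3 and libraries 2 and 3 of 5xFAD/Cd5l tg/wt left out, log2 fold changes in 5xFAD/Cd5l tg/wt against wild-type were -0.11 for Clk1, -0.22 for Clk2, -0.25 for Clk4, -0.14 for Ccnl1, -0.17 for Ccnl2, -0.0373 for Leng8 and -0.0298 for Rnpc3. Clk3 there ran from -0.0927 to 0.0925 with 1 library left out, and was 0.0311 and 0.0224 without wild-type libraries 2 and 3 in turn. The causes of these changes were not tested. Near 0, paralogs that did not pass also changed sign. In 5xFAD against wild-type, Srpk2 ran from -0.0192 to 0.0577 and Dyrk1a from -0.0419 to 0.0563 with 1 library left out. In 5xFAD/Cd5l tg/wt against 5xFAD, Srpk2 was -0.0668 and Dyrk1a -0.0553 with length offsets, Srpk1 was -0.0254 without the 3 libraries, and with 1 left out Dyrk1a ran from -0.0122 to 0.0701 and Wsb2 from -0.0679 to 0.0318. With the replicate block, 0 of the 10 genes passed in 5xFAD/Cd5l tg/wt against wild-type, and 0 pathway genes did; 26 pathway genes passed in 5xFAD against wild-type and 35 with the transgene against 5xFAD. Alternative scalings moved the median of all genes by less than 0.1. With 3 libraries a genotype, small differences may go undetected.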
